A study of Mus musculus with 12 samples.

Results

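The 40 genes described here act in mitosis, and their transcripts were followed across 5 fractions of mouse epidermal cells. They were taken by their symbol in the platform annotation, from probe sets that name a single gene, with the probe set of highest mean log2 intensity over the 12 arrays standing for each gene. All 40 were measured, among 18193 genes in all. Skin cells were sorted from mice with 4 transgenes, the K5-tTA driver with its pTRE-H2B-GFP target and the K14-CreER recombinase with its Rosa-tdTomato reporter. The K5 promoter drives the transactivator that switches on the green histone, so keratin 5 expressing cells carry the label, doxycycline shuts its synthesis off, and each division then dilutes it. Mice of every group ate doxycycline at 1 g per kg of food for 2 weeks and received a single tamoxifen dose of 75 mg per kg of body weight, with skin taken at second telogen 1 week after it. The sources used here give no age in days, no sorting gates and no number of animals per sample. The groups were BL LRC (n = 3), BL non-LRC (n = 3), SL LRC (n = 2), SL non-LRC (n = 2) and GL (n = 2), read here from knowledge of the study as basal, spinous and granular layer, and as label-retaining cells and cells that had lost the label.

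Mitosis is driven by Cdk1 bound to cyclins A and B, held back by the spindle checkpoint until every kinetochore is attached to microtubules, and ended when the anaphase promoting complex marks cyclin B and securin for destruction so that separase can part the sister chromatids. Many transcripts of this machinery are highest in G2 and M phase, which makes their level in a cell population a common readout of how many cells are dividing. In the epidermis, divisions take place mainly in the basal layer, and cells of the upper layers have mostly left the cycle.

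The arrays gave intensities that had been scaled to the same trimmed mean on each array, and 31 of the 40 genes lay above the array's background floor on all 12 arrays. The other 9 were below it on at least 1 array and above it on at least 7. The number of arrays per group limits the precision, and since nothing states that the samples came from separate animals, the p-values cover the spread among these samples, which may be technical. By a bacterial control added at hybridisation, array 1 of each BL label and both arrays of SL non-LRC formed one set (461 to 523 intensity units), and the other 8 arrays another (2819 to 3844). In BL each set held both labels, whereas in SL the set and the label cannot be told apart. The fractions went with their keratinocyte markers in part: the summed intensity of 11 basal markers was lowest in GL (88846 to 93571, against 111604 to 164514 on the other arrays) and that of 12 granular markers highest there (16946 to 26195, against 4743 to 14476). Of the 12 granular markers, 10 were called higher and 1 lower in GL than in BL. Against SL LRC 1 was called higher and 1 lower, and against SL non-LRC 0 were higher and 1 lower. Basal markers were abundant in every fraction, including SL and GL. The sum of 11 spinous markers was highest in SL LRC (171761 to 179340), but in SL non-LRC (94403 to 114045) it overlapped both BL fractions (71739 to 133207) and lay below GL (126085 to 131807), so the summed list did not set SL non-LRC apart. Of the 11 genes, 4 were called higher in SL non-LRC than in BL non-LRC and 0 lower.

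Many promoters of genes transcribed late in the cycle carry a CHR element, a site bound by the MuvB complexes that repress these genes in resting cells and activate them with B-Myb and FoxM1 in dividing ones, downstream of CCAAT boxes bound by NF-Y. Promoter windows of RefSeq (GRCm38.p6, 250 bases before to 50 after the start) were matched by symbol for 34 of the 40 genes and searched on both strands for TTTGAA or TTCGAA (CHR), for CCAAT, and for TTTNNCGC, a pattern of E2F sites. A CHR match was present for 27 of the 34 genes (79.4%), against 17.5% of the 14452 measured genes with a window. CCAAT was found for 26 (76.5%, against 42.0%) and at least 2 copies of it for 17 (50%, against 14.9%). Both CHR and CCAAT were present for 24 genes (70.6%, against 8.25%), while TTTNNCGC was found for 4 (11.8%, against 8.24%). Of the 39 CHR matches, 1 overlapped a CCAAT match. These shares describe letters in a window and carry no test.

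The windows of 4 genes are shown, those of the 3 genes called lower in BL LRC and of Ttk, which was higher in LRC over both layers. Each line runs 5′ to 3′ on the gene's strand, from 140 bases before the RefSeq start to 20 bases from it onward. Capitals mark CHR matches (TTTGAA or its complement TTCAAA) and CCAAT boxes (CCAAT or its complement ATTGG). The windows lie at chr4:118437324-118437483 (minus strand) for Cdc20, chr9:70421535-70421694 (minus strand) for Ccnb2, chr2:164769789-164769948 (plus strand) for Ube2c and chr9:83834549-83834708 (plus strand) for Ttk.
Cdc20: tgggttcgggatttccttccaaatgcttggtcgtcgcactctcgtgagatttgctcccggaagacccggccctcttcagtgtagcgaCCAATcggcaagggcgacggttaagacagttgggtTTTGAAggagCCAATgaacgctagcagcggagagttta
Ccnb2: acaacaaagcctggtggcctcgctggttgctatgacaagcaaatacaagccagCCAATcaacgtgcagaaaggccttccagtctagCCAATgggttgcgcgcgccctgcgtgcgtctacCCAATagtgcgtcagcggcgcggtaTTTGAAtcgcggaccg
Ube2c: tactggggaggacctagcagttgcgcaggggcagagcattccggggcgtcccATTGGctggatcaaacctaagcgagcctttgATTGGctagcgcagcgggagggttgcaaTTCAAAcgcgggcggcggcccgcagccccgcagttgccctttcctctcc
Ttk: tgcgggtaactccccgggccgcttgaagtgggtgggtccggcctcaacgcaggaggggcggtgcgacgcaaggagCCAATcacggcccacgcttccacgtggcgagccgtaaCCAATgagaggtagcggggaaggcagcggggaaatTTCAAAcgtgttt
All 4 windows held a CHR match close to the start, before it for Cdc20 and Ube2c and after it for Ccnb2 and Ttk, with at least 1 CCAAT box upstream of the match. Cdc20 had a further CCAAT box downstream of its match. The letters searched for thus occur in the Ttk window as in the other windows.

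The array median over the 40 genes was 195, 227 and 195 in BL LRC, against 360.2, 391 and 479.6 in BL non-LRC. It was 162 and 98.6 in SL LRC, against 366 and 342 in SL non-LRC, and 134 and 119 in GL. The 5 non-LRC arrays were therefore above all 7 LRC and GL arrays, and the SL and BL non-LRC arrays overlapped. Taken gene by gene, BL non-LRC was the group of highest mean for 27 genes, SL non-LRC for 11 and SL LRC for 2, Ttk and Espl1. The lowest mean lay in SL LRC for 20 genes, in GL for 16, in BL LRC for 3 and in SL non-LRC for 1. Between the highest and the lowest group a gene's mean differed by 0.90 to 4.20 log2 units, beside a standard deviation within groups with a median of 0.51. In bulk samples, fewer dividing cells and less of these transcripts per dividing cell cannot be told apart.

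**Figure D1:**
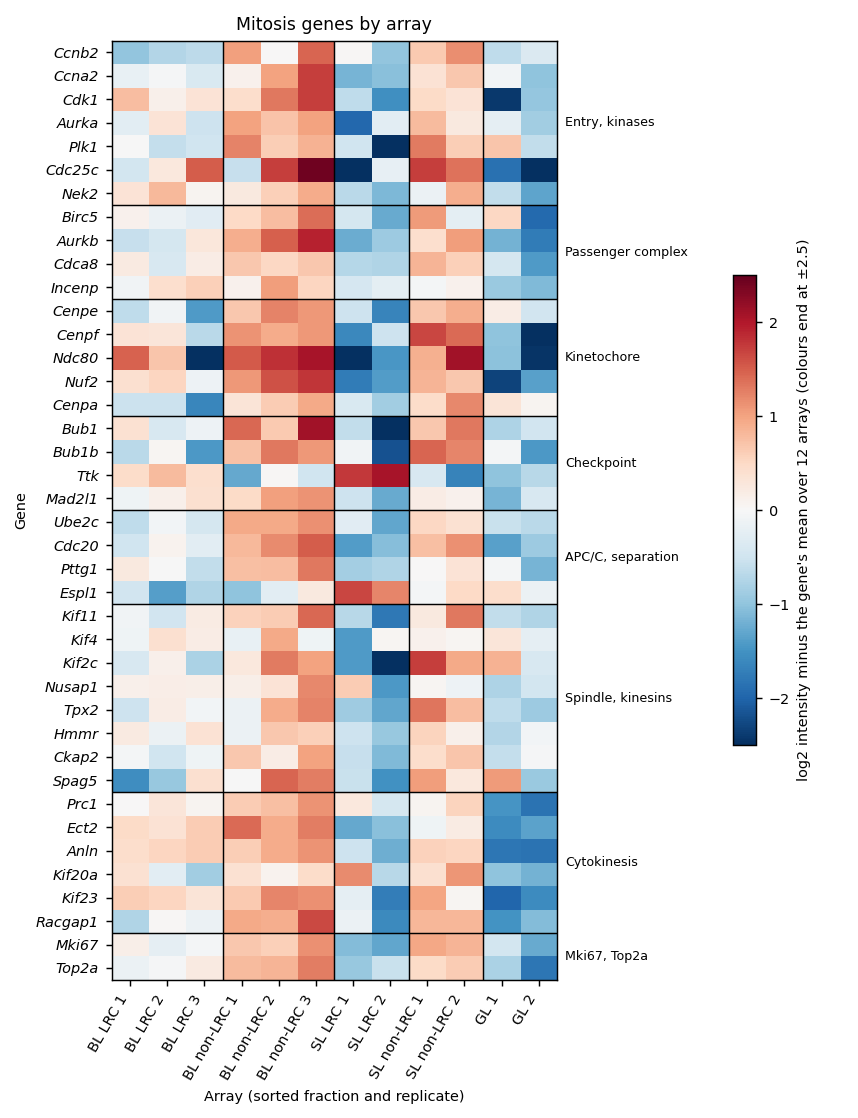
Log2 intensity of each of the 40 mitosis genes on each of the 12 arrays, minus that gene's mean over the 12 arrays, with genes grouped by role in rows and arrays grouped by fraction in columns. Colours end at 2.5 log2 units either way. The non-LRC columns of both layers are red for most genes and the SL LRC and GL columns blue, while the rows of Ttk and Espl1 are red in SL LRC.

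Label-retaining and non-retaining cells were compared within each layer. The comparison was read as cells that had divided little against cells that had divided more since the label was shut off. Whether the non-LRC fractions also held cells that never carried the label was not tested. In BL LRC, 3 of the 40 genes were lower and 0 higher than in BL non-LRC by limma with Benjamini-Hochberg adjustment at 0.05, against 1.23% and 0.308% of all genes tested. At an unadjusted p under 0.05, 22 of the 40 were lower and 1 higher, against 5.86% and 5.28% of all genes. The median difference was -0.98 log2 units, with 39 genes below 0, beside a median of 0.05 over all genes. All 3 BL LRC arrays lay below all 3 BL non-LRC arrays for 27 genes, and above them for 1, against 7.67% and 8.76% of all genes. In SL LRC, 11 genes were lower and 1 higher than in SL non-LRC, against 2.7% and 1.49% of all genes, and the median was -1.48 with 38 genes below 0. The arrays did not overlap for 35 genes that were lower and 2 that were higher in SL LRC, against 24.2% and 23.4% of all genes.

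Averaged over both layers, label-retaining cells had 27 of the 40 genes lower and 1 higher, against 4.52% and 2.77% of all genes, with a median of -1.33. The 5 LRC arrays all lay below the 5 non-LRC arrays for 18 genes and above them for 1, against 2.87% and 1.98% of all genes. The sign was the same in both layers for 39 genes, 38 below 0 and Ttk above 0, and it was opposite for Espl1. For 26 of the 40 genes the arrays did not overlap in either layer and LRC were lower in both, against 4.62% of all genes. Leaving out each array in turn gave 1 to 4 called genes in BL, 4 to 11 in SL and 18 to 28 over both layers, and without a mean-variance trend the counts were 0, 4 and 18. With the array set as a term, the SL count was 6 and the count over both layers 23, and within BL the median was -0.61 between the arrays of the lower set (32 of 40 genes below 0) and -1.18 within the higher set (39 of 40). Of the 28 calls over both layers, 14 held in all 10 fits without 1 array: Mki67, Top2a, Ccnb2, Ccna2, Aurkb, Cdca8, Cenpe, Cenpf, Ttk, Ube2c, Cdc20, Kif2c, Tpx2 and Racgap1. The other 14 were each lost in 1 to 9 of these fits.

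Markers of other epidermal cells also moved with the label. Those of the infundibulum and sebaceous gland, the upper hair follicle and its oil gland, were lower in LRC. In BL LRC 11 of these 12 markers were lower, with a summed intensity of 18464 to 22914, against 49782 to 90287 in BL non-LRC. In SL LRC 8 of 12 were lower, with a sum of 44869.7 to 47534, against 98437 to 111484 in SL non-LRC. Pparg and Cd36 were not above the floor on any BL LRC array, and no marker of this list was below the floor on every array of any other group. Of 10 hair follicle bulge and germ markers 3 were lower in BL LRC (sum 6574 to 9901, against 12854 to 14248 in BL non-LRC), and 5 were lower and 1 higher in SL LRC (6913 to 7709, against 19564 to 24537 in SL non-LRC). Of 10 myeloid and Langerhans markers 0 were called in BL and 3 were lower in SL LRC (1194 to 1612, against 3533 to 8669 in SL non-LRC). Of 11 spinous markers 4 were higher in BL LRC (107537 to 133207, against 71739 to 96635 in BL non-LRC) and 6 in SL LRC (171761 to 179340, against 94403 to 114045 in SL non-LRC). The part of these cells in the mitosis differences was not tested.

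**Figure D2:**
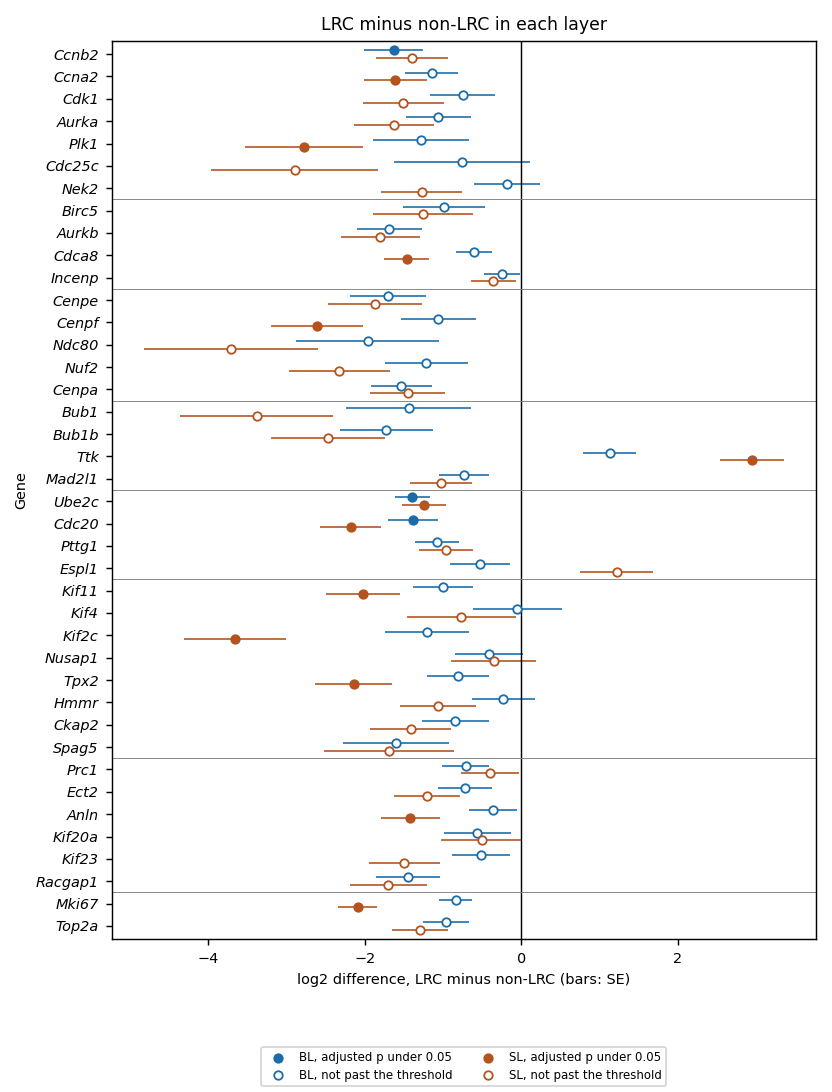
Difference in log2 intensity, LRC minus non-LRC, for each mitosis gene in BL (blue) and in SL (orange), with the moderated standard error as a bar. Filled points passed the adjusted p threshold of 0.05, 3 in BL and 12 in SL. Points lie left of 0 for 39 genes in BL and 38 in SL, and Ttk lies right of 0 in both layers.

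Among the genes read most often as proliferation markers, Mki67 encodes the Ki-67 protein that coats mitotic chromosomes. Its intensity was 2299.8, 1795 and 2026 in BL LRC, against 3314, 3162 and 4578 in BL non-LRC. It was 987 and 848 in SL LRC, against 4079.9 and 3737 in SL non-LRC. Neither layer showed any overlap between the labels, and the 2 SL LRC arrays were the lowest of the 10. Over both layers Mki67 fell by 1.47 ± 0.16 log2 units (SE, limma adjusted p = 2.84e-05), with -0.84 ± 0.21 in BL (adjusted p = 0.0559) and -2.09 ± 0.25 in SL (adjusted p = 0.000219). Top2a, the topoisomerase that untangles sister chromatids, had 376, 407 and 487 in BL LRC, against 725, 752 and 1017 in BL non-LRC. SL LRC gave 217 and 284, against 577 and 648 in SL non-LRC. Each LRC array was again below each non-LRC array, and over both layers Top2a was 2.19-fold lower in LRC (-1.13 ± 0.23, adjusted p = 0.00552). Its other 2 probe sets, both dimmer, were not lower in SL LRC, at 0.52 and 0.40 log2 units, and the mean of the 3 probe sets was not called over both layers (adjusted p = 0.757).

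The genes of mitotic entry, cyclins and kinases, were below 0 in both layers for 7 of 7 genes, and 5 of the 7 were lower over both layers. Ccnb2, cyclin B2, had 152, 183 and 192 in BL LRC, against 618, 306 and 831 in BL non-LRC (-1.63 ± 0.38, adjusted p = 0.0383). Its SL intensities were 306 and 152 in LRC, against 474 and 679 in non-LRC (-1.40 ± 0.46, adjusted p = 0.109). The BL call was lost in 5 of 6 fits that each left out 1 array, all but the one without BL non-LRC 2, with adjusted p up to 0.22, while the call over both layers held in all 10 (-1.51 ± 0.30, adjusted p = 0.00423). Cdk1, the kinase that cyclins A and B activate, had 470.4, 301 and 349.6 in BL LRC, against 377, 685 and 914 in BL non-LRC. In SL its values were 177 and 95.4 in LRC, against 387 and 353 in non-LRC. The labels overlapped in BL and not in SL, and the call over both layers (-1.13 ± 0.33, adjusted p = 0.0479) was lost in 8 of 10 fits without 1 array (adjusted p up to 0.199). Plk1, a kinase needed at centrosomes, kinetochores and the midzone, had 96.1, 64.2 and 69.4 in BL LRC, against 231, 149.7 and 179 in BL non-LRC. Within SL, LRC had 68.9 and 11.0, the second below background, against 241 and 149 in non-LRC. Plk1 was lower in SL (-2.78 ± 0.75, adjusted p = 0.0465) and over both layers (-2.03 ± 0.49, adjusted p = 0.0159). The SL call was lost without SL LRC 2 or without either SL non-LRC array. It was also lost in 6 of 10 other alternatives, among them the array set as a term. The Plk1 call over both layers was lost without SL LRC 2 or SL non-LRC 1 (adjusted p up to 0.0832). It was also lost without a mean-variance trend and with the array set as a term (adjusted p up to 0.107). Ccna2, cyclin A2 (-1.38 ± 0.26, adjusted p = 0.00328), and Aurka, the Aurora kinase of spindle poles (-1.34 ± 0.33, adjusted p = 0.018), were also lower over both layers, Aurka not without SL LRC 1 or SL non-LRC 1 (adjusted p up to 0.114). Cdc25c, the phosphatase that switches Cdk1 on, did not pass (adjusted p = 0.135), and neither did Nek2, a centrosomal kinase (-0.73 ± 0.34).

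The chromosomal passenger complex, which corrects wrong attachments and later moves to the midzone, had 4 of 4 genes below 0 in both layers and 2 of 4 lower over both. Aurkb, its kinase, had 109, 121 and 199 in BL LRC, against 307, 459 and 619 in BL non-LRC. For SL the values were 68.9 and 87.0 in LRC, against 219 and 334 in non-LRC. All LRC arrays were below all non-LRC arrays of both layers, and over both layers Aurkb was 3.35-fold lower (-1.75 ± 0.33, adjusted p = 0.00264). Cdca8, borealin, had 1689, 1099 and 1641 in BL LRC, against 2285, 2050.4 and 2287 in BL non-LRC. Its SL values were 876 and 852 in LRC, against 2615 and 2182 in non-LRC. Cdca8 was lower in SL (-1.47 ± 0.29, adjusted p = 0.00692) and over both layers (-1.04 ± 0.18, adjusted p = 0.00186), with no overlap in either layer. The SL call was lost in 3 of 4 fits without 1 array, all but the one without SL non-LRC 2. It was also lost in 4 of 10 other alternatives, among them the array set as a term. The Cdca8 probe set outside the _x_at and _s_at types gave no call over both layers (adjusted p = 0.663). Birc5, survivin, had 262, 221 and 201 in BL LRC, against 345, 415 and 643 in BL non-LRC. The SL arrays gave 180.1 and 102 in LRC, against 508 and 205 in non-LRC. Although its arrays did not overlap within a layer, Birc5 did not pass over both (-1.12 ± 0.41, adjusted p = 0.125), and neither did Incenp, the scaffold (-0.30 ± 0.18, adjusted p = 0.398). Incenp was read from an _x_at probe set. A dimmer probe set above the floor on all 12 arrays was at -0.98 log2 units in BL and -0.75 in SL. Its labels did not overlap within either layer. A further such probe set was at 0.57 in BL and -0.80 in SL. It had 2969 on BL LRC 1, against 301 and 226 on the other BL LRC arrays.

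All 5 genes of the kinetochore and centromere were lower over both layers. Cenpe, a kinesin that moves chromosomes to the spindle equator, had 71.0, 103 and 41.4 in BL LRC, against 175, 259 and 233 in BL non-LRC. SL LRC gave 77.1 and 35.1, against 174 and 207 in SL non-LRC. No LRC array reached the non-LRC arrays (-1.79 ± 0.39, adjusted p = 0.00817). Cenpf, a large protein of the outer kinetochore, had 272, 265 and 134 in BL LRC, against 469, 408 and 460.5 in BL non-LRC. Its SL intensities were 70.3 and 151 in LRC, against 689 and 575 in non-LRC. The SL difference was called (-2.61 ± 0.58, adjusted p = 0.0161) and was lost without SL LRC 1 or without either SL non-LRC array. It was also lost with the array set as a term, without a mean-variance trend and as the mean of its probe sets. Ndc80, which grips the microtubule, had 125, 72.6 and 7.09 in BL LRC, against 129, 159.5 and 185 in BL non-LRC. Within SL, LRC had 5.66 and 16.2, against 82.8 and 191 in non-LRC. BL LRC 3 and both SL LRC arrays were below background, which makes the SL difference at least 3.37-fold lower, a lower bound set by the array floors, without a call (adjusted p = 0.0745). Its partner Nuf2 was likewise at least 3.06-fold lower in SL LRC (adjusted p = 0.0536) and was called lower over both layers (adjusted p = 0.0145). Cenpa, the histone H3 variant of centromeres, was lower over both layers as well (-1.49 ± 0.31, adjusted p = 0.00596). Ndc80 was also called lower over both layers (adjusted p = 0.0222). No size is given there for Ndc80 or Nuf2 because both of their SL LRC arrays were below background. The sizes given elsewhere for Plk1, Bub1b, Kif2c and Foxm1 include 1 SL LRC array below background. The calls of Ndc80, Nuf2 and Cenpa were lost in 2, 3 and 1 of the 10 fits without 1 array (adjusted p up to 0.122, 0.0562 and 0.0551), each involving an SL array.

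The spindle checkpoint split in 2. Bub1, a kinase that seeds checkpoint signalling at kinetochores, had 60.1, 34.8 and 41.8 in BL LRC, against 124, 72.0 and 196 in BL non-LRC. For SL the values were 29.9 and 2.55 in LRC, neither above background, against 73.3 and 114 in non-LRC, which is at least 2.45-fold lower (adjusted p = 0.062). Bub1b, the inhibitor BubR1, had 60.8, 99.8 and 35.9 in BL LRC, against 160.2, 241 and 205 in BL non-LRC. The SL arrays gave 91.5 and 21.5 in LRC, the second below background, against 267 and 226 in non-LRC. The labels did not overlap for either gene, and both were called lower over both layers, Bub1 (adjusted p = 0.0259) with no size given, since both of its SL LRC arrays were below background, and Bub1b at -2.10 ± 0.47 (adjusted p = 0.0107). Mad2l1, the Mad2 protein that blocks Cdc20, was lower too (-0.88 ± 0.26, adjusted p = 0.0455). Without 1 array the call was lost in 6 of 10 fits for Bub1 (adjusted p up to 0.122), in 8 for Mad2l1 (0.193) and in 1, without SL LRC 2, for Bub1b (0.0666). Ttk, the kinase Mps1 that starts the checkpoint, ran the other way, with 817, 1024 and 796 in BL LRC, against 246, 609 and 423 in BL non-LRC. In SL its intensity was 2033 and 2467 in LRC, against 450.3 and 187 in non-LRC. Every LRC array of either layer lay above every non-LRC array, and the SL LRC arrays were the highest of all 12. Ttk rose by 2.04 ± 0.27 log2 units over both layers (adjusted p = 0.000129) and by 2.95 ± 0.41 in SL (adjusted p = 0.00063), and stood at 1.13 ± 0.34 in BL (adjusted p = 0.14).

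Ttk has a second probe set, which was not used for these calls. It gave 336, 352 and 235 in BL LRC, against 37.6, 113 and 69.9 in BL non-LRC. It gave 665 and 632 in SL LRC, against 64.8 and 54.3 in SL non-LRC, and 61.6 and 86.3 in GL. The second probe set thus also had every LRC array above every non-LRC array, with differences of 2.19 log2 units in BL and 3.45 in SL. The SL call for Ttk held in 4 of 4 fits without 1 array and in 10 of 10 other alternatives, and the call over both layers held in 10 of 10 and 11 of 11.

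Of the genes around the anaphase promoting complex and chromatid separation, 3 of 4 were lower over both layers. Ube2c, the ubiquitin-conjugating enzyme of the complex, had 901, 1319 and 1030.2 in BL LRC, against 2695, 2681 and 3066 in BL non-LRC (-1.39 ± 0.23, adjusted p = 0.00324). SL LRC gave 1141 and 563, against 2000.4 and 1805 in SL non-LRC (-1.25 ± 0.28, adjusted p = 0.0169). Ube2c was called in both layers, and in BL it kept its call in 6 of 6 fits without 1 array (adjusted p up to 0.0223). In SL the call was lost without SL LRC 2 or without either SL non-LRC array. It was also lost with the array set as a term, without a mean-variance trend and with the compared groups only. The adjusted p of these alternatives was up to 0.139. Cdc20, the activator of the complex that the checkpoint restrains, had 191, 284 and 223 in BL LRC, against 469, 605 and 763 in BL non-LRC (-1.39 ± 0.32, adjusted p = 0.0351). Its SL intensities were 101 and 129 in LRC, against 454 and 592 in non-LRC (-2.18 ± 0.39, adjusted p = 0.00367). The highest LRC array was below the lowest non-LRC array, and over both layers Cdc20 was 3.45-fold lower (adjusted p = 0.000244). Its probe set is of the _x_at type, and the BL call was lost with the mean of its probe sets (adjusted p = 0.175) and with the one outside that type (-0.29, adjusted p = 0.816), while the SL call and the call over both layers held. The BL call was also lost in 5 of 6 fits without 1 array (adjusted p up to 0.201), and the SL call in 1 of 4, without SL non-LRC 2 (0.0728). Pttg1, securin, was lower over both layers (-1.02 ± 0.23, adjusted p = 0.00949), not without SL non-LRC 2 (adjusted p = 0.0624), and its dimmest probe set had the opposite sign in each layer.

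Espl1, separase, differed in sign between the layers. It had 183, 97.9 and 150.4 in BL LRC, against 127, 211 and 302 in BL non-LRC (-0.53 ± 0.38, adjusted p = 0.668). Within SL, LRC had 813 and 592, against 246 and 361 in non-LRC (1.22 ± 0.47, adjusted p = 0.175). The BL arrays overlapped and the SL LRC arrays were the highest of all 12, but neither difference was called. It is measured by a single probe set.

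**Figure D3:**
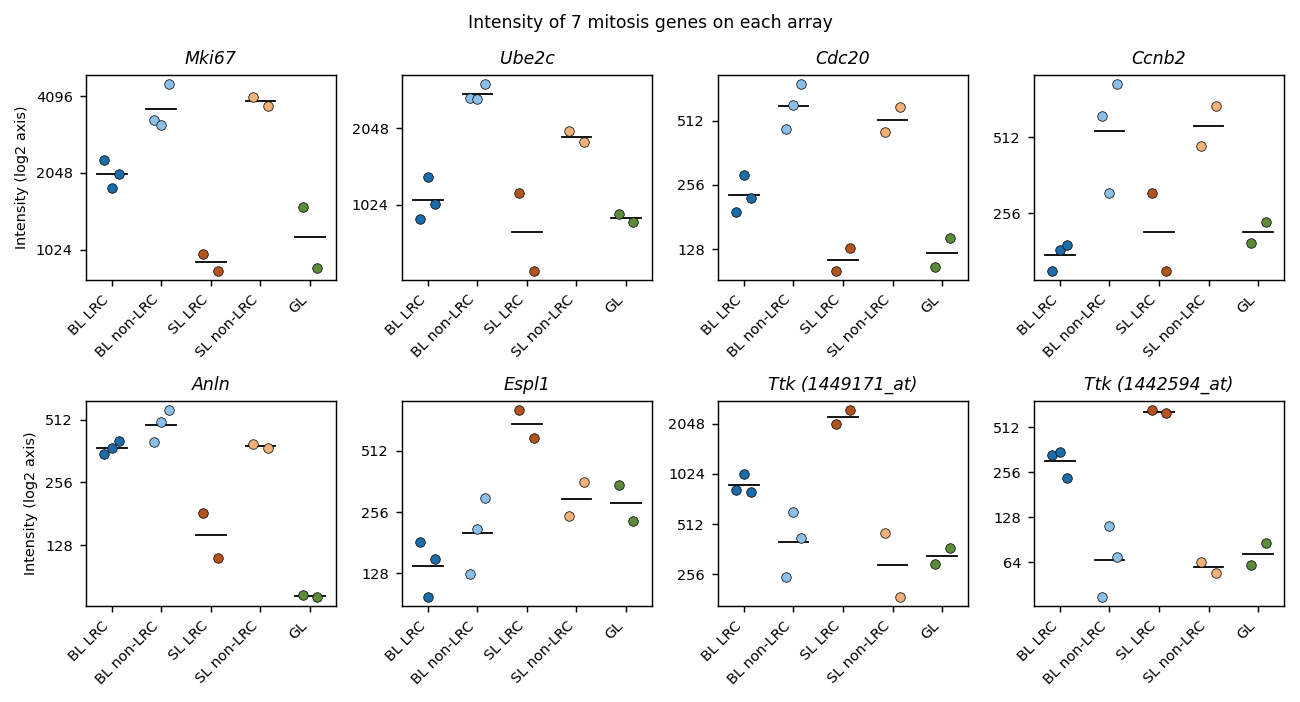
Intensity on each array (log2 axis) of 7 mitosis genes, with Ttk shown by both of its probe sets. Points are arrays, coloured by fraction, and lines are group means of log2 intensity. The group means of Mki67, Ube2c, Cdc20, Ccnb2 and Anln lie lower in LRC than in non-LRC of the same layer, those of Ttk lie higher by both probe sets, and Espl1 is highest in SL LRC.

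Spindle assembly factors and kinesins had 8 of 8 genes below 0 in both layers and 3 of 8 lower over both. Kif11, the motor that pushes spindle poles apart, had 258, 199 and 320.4 in BL LRC, against 414, 429 and 744 in BL non-LRC. For SL the values were 170.4 and 79.7 in LRC, against 327 and 694 in non-LRC. The labels did not overlap in either layer (-1.52 ± 0.31, adjusted p = 0.00495 over both), and the call was lost without SL non-LRC 2 alone (adjusted p = 0.0537). Kif2c, a kinesin that takes microtubules apart, had 104, 149.6 and 79.3 in BL LRC, against 164, 337 and 275 in BL non-LRC. The SL arrays gave 51.1 and 14.5 in LRC, the second below background, against 449.9 and 264 in non-LRC. The SL difference of Kif2c was called (-3.66 ± 0.65, adjusted p = 0.00372) and was lost without SL LRC 2 (adjusted p = 0.0504), and the difference over both layers held in all 10 such fits (-2.43 ± 0.42, adjusted p = 0.00148). Tpx2, which activates Aurora A, had 141, 233 and 194 in BL LRC, against 184, 389 and 478 in BL non-LRC. SL LRC gave 109.96 and 83.1, against 513 and 348 in SL non-LRC. BL labels overlapped and SL labels did not, and Tpx2 was lower over both layers (-1.48 ± 0.32, adjusted p = 0.00756), though not as the mean of its probe sets (adjusted p = 0.505). Ckap2, Spag5, Hmmr, Kif4 and Nusap1, which bind or bundle spindle microtubules or chromosomes, did not pass over both layers, at -1.65 to -0.39 log2 units. Hmmr was read from an _x_at probe set, at -0.23 in BL and -1.07 in SL. Its other probe sets above the floor on all 12 arrays were at -1.12 and -1.08 in BL, and -1.36 and -1.47 in SL. Those below the floor on some arrays were at -1.14 and 0.27 in BL.

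The central spindle and cytokinesis group had 6 of 6 genes below 0 in both layers and 4 of 6 lower over both. Anln, the scaffold anillin of the contractile ring, had 351, 375 and 402 in BL LRC, against 400.2, 496 and 568 in BL non-LRC. Its SL intensities were 183 and 112 in LRC, against 389 and 375 in non-LRC. BL LRC and non-LRC overlapped at the edge, while SL LRC lay below SL non-LRC (-1.42 ± 0.37, adjusted p = 0.0402). That SL call failed whichever of the 4 SL arrays was left out. It also failed in 6 of 10 other alternatives, among them the array set as a term. Ect2, an exchange factor that acts at the cleavage site, had 234, 215 and 259 in BL LRC, against 446, 321 and 407 in BL non-LRC. Within SL, LRC had 69.5 and 81.7, against 156 and 194 in non-LRC. The labels did not overlap within a layer, and all 4 SL values were below all 6 BL values. Prc1, which bundles midzone microtubules, had 324, 397 and 339 in BL LRC, against 500.3, 544 and 707 in BL non-LRC. For SL the values were 389 and 238 in LRC, against 339 and 476 in non-LRC. Prc1 separated in BL, overlapped in SL and did not pass over both layers (-0.56 ± 0.24, adjusted p = 0.194). Racgap1, a subunit of centralspindlin, was lower over both layers (-1.58 ± 0.32, adjusted p = 0.00546), as were its kinesin partner Kif23 (-1.01 ± 0.29), Ect2 (-0.96 ± 0.28) and Anln (-0.89 ± 0.24). Without 1 array the call was lost in 7 of 10 fits for Kif23, in 9 for Ect2 and in 8 for Anln (adjusted p up to 0.234). The midzone kinesin Kif20a did not pass (-0.54 ± 0.34, adjusted p = 0.417).

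Whether the label made a larger difference in SL than in BL was tested as an interaction. No mitosis gene passed (0 of 40, and 0% of all genes in either direction by limma), while 7 of the 40 and 1291 of 18193 genes had an unadjusted p under 0.05. The median of the SL difference minus the BL difference was -0.57 log2 units. Mki67 had the smallest p of the 40 (-1.25 ± 0.33, adjusted p = 0.451), followed by Ttk (1.82 ± 0.53, adjusted p = 0.522). The greater number of calls in SL is therefore not shown to be a difference between the layers.

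Between the layers, label-retaining cells were compared first, as the SL LRC minus BL LRC difference. There 3 of the 40 genes were lower and 1 higher, against 1.41% and 1.41% of all genes, and the median was -0.86 log2 units. Mki67 was lower (-1.15 ± 0.23, adjusted p = 0.0114), and so were Ect2 (-1.64 ± 0.39, adjusted p = 0.0314) and Anln (-1.39 ± 0.34, adjusted p = 0.0359). Espl1 was 4.98-fold higher in SL LRC (adjusted p = 0.00586), and the arrays of these 4 genes did not overlap. Over the 40 genes the arrays did not overlap for 22 that were lower and 2 that were higher, against 15.5% and 14.3% of all genes. Without 1 array the counts were 1 or 2, Ect2 and Anln were lost in each of the 5 fits, Mki67 was lost without either SL LRC array (adjusted p up to 0.141) and Espl1 without SL LRC 1 (0.105).

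In non-LRC, 0 of the 40 genes differed between SL and BL by limma, against 0.39% of all genes lower and 1.17% higher, and 3 had an unadjusted p under 0.05. Ect2 came closest (-1.16 ± 0.39, adjusted p = 0.195). The median was -0.28 log2 units, and -0.034 between the arrays of the set with the lower hybridisation control alone. Mki67 was at 0.10 ± 0.23, Cdc20 at -0.21 ± 0.35 and Kif11 at -0.10 ± 0.43. The arrays did not overlap for 10 genes that were lower and 1 that was higher in SL non-LRC, against 12.2% and 14.6% of all genes.

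**Figure D4:**
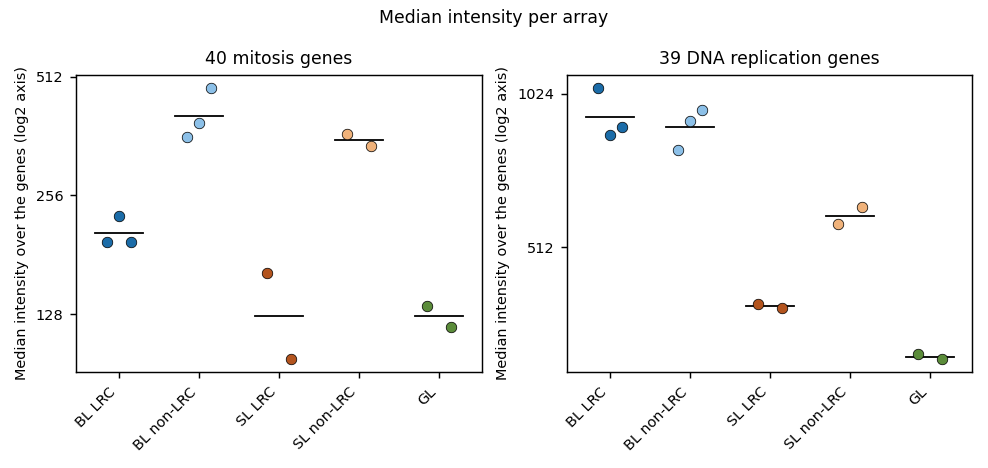
Median intensity on each array (log2 axes) over the 40 mitosis genes (left) and over 39 DNA replication genes (right), with lines at the group means of log2 values. For mitosis genes the LRC arrays lie below the non-LRC arrays in both layers. For replication genes the BL LRC arrays (850.3 to 1049.96) overlap the BL non-LRC arrays (795 to 949), and the SL and GL arrays lie lower.

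GL was compared with both SL fractions and with BL. These comparisons share the GL arrays, so their values are given side by side. Against SL non-LRC, 16 of the 40 genes were lower in GL and 0 higher, against 2.83% and 1.98% of all genes, with a median of -1.43 log2 units and no overlap of arrays for 34 genes that were lower, against 24.5% of all genes. Against BL, the mean of both labels, 19 were lower and 0 higher, against 8.41% and 8.66% of all genes, with a median of -1.12. Against SL LRC, 2 were lower and 1 higher, against 4.03% and 5.34% of all genes, with a median of 0.10. Both GL arrays belonged to the set of higher hybridisation control and both SL non-LRC arrays to the lower one, so that set and group cannot be told apart within that comparison. With the array set as a term, estimated from BL, 12 of the 40 genes were called against SL non-LRC, and Cdk1, Ube2c, Nuf2 and Cdca8 lost their calls. Without 1 array the counts were 5 to 9 against SL non-LRC, 13 to 22 against BL and 2 to 4 against SL LRC.

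Of the cytokinesis genes, 5 of 6 were lower in GL than in BL and 4 of 6 lower than in SL non-LRC. Anln had 74.3 and 72.3 in GL, below all 10 other arrays, and was 5.81-fold lower than in BL (-2.54 ± 0.30, adjusted p = 1.49e-05) and 5.21-fold lower than in SL non-LRC (-2.38 ± 0.37, adjusted p = 0.00127). Prc1 had 116 and 90.3 in GL, again below all other arrays, and was lower than in BL (-2.14 ± 0.30, adjusted p = 7.19e-05), SL non-LRC (-1.97 ± 0.37, adjusted p = 0.00432) and SL LRC (-1.57 ± 0.37, adjusted p = 0.0105). The SL LRC call of Prc1 was lost without SL LRC 1 or GL 2 and in a fit of the compared groups only. Its SL non-LRC call was lost without SL non-LRC 2. That call was also lost outside the _x_at and _s_at types and with the compared groups only (adjusted p up to 0.0757). Kif23 had 547, 513 and 444 in BL LRC and 559, 831 and 782 in BL non-LRC. It had 303 and 107 in SL LRC, 699.7 and 367 in SL non-LRC and 90.1 and 119 in GL. GL was below BL without overlap (-2.52 ± 0.37, adjusted p = 0.000111), and overlapped the range of SL LRC. Ect2 had 56.6 and 66.6 in GL, below all other arrays (-2.30 ± 0.35, adjusted p = 0.000164 against BL).

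**Figure D5:**
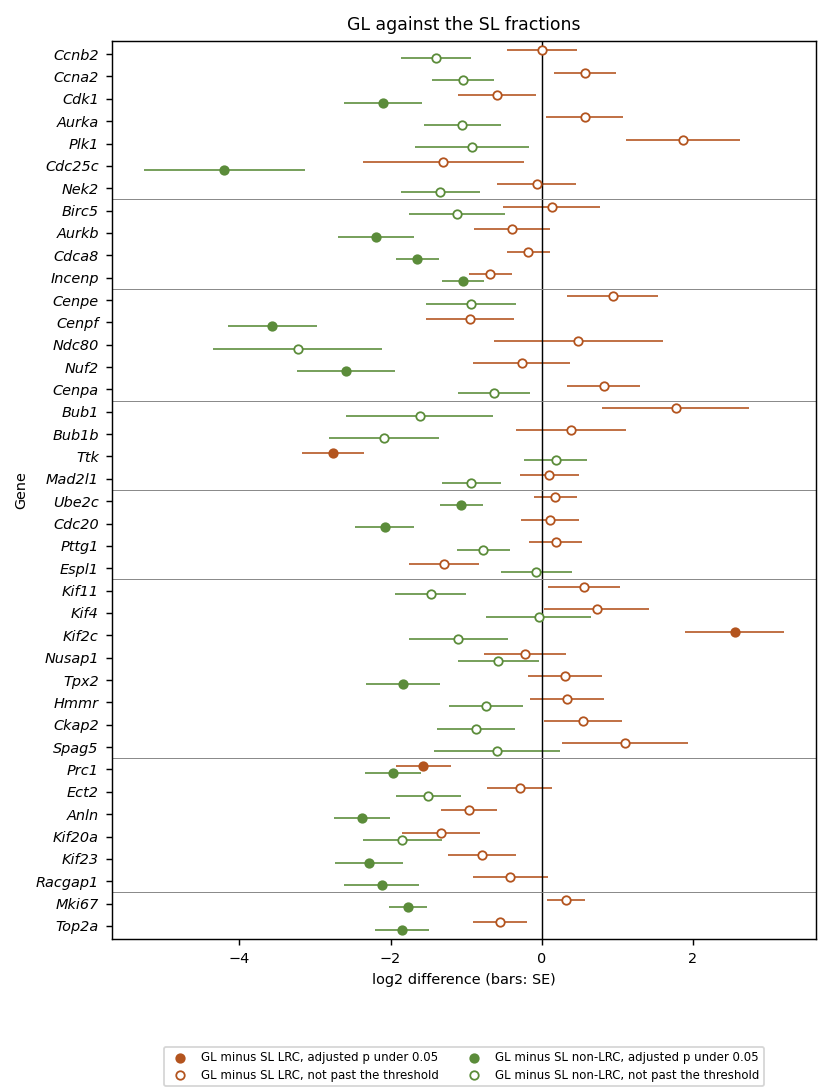
Difference in log2 intensity for each mitosis gene, GL minus SL LRC (orange) and GL minus SL non-LRC (green), with the moderated standard error as a bar. Filled points passed the adjusted p threshold of 0.05. Green points lie left of 0 for 39 genes, and orange points lie on both sides of 0, with Ttk furthest left and Kif2c furthest right.

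Both proliferation markers and the kinase genes Cdk1 and Aurkb were lower in GL than in BL and in SL non-LRC. Mki67 had 1508 and 868 in GL, and was lower than in SL non-LRC (-1.77 ± 0.25, adjusted p = 0.00064) and in BL (-1.25 ± 0.21, adjusted p = 0.000382), while against SL LRC it was at 0.32 ± 0.25 (adjusted p = 0.542). Top2a had 242 and 119 in GL and was lower than in SL non-LRC (-1.85 ± 0.36, adjusted p = 0.0058) and BL (-1.79 ± 0.29, adjusted p = 0.000315). Without 1 array the call against SL non-LRC was lost in 2 of 4 fits for Top2a (adjusted p up to 0.0709), in 3 of 4 for Cdk1 (0.262) and in 3 of 4 for Aurkb (0.174), while the calls of these genes against BL held in 8 of 8. The mean of the Top2a probe sets gave no call against SL non-LRC (adjusted p = 0.227), and the array set as a term none for Cdk1 (0.105). Cdk1 had 52.2 and 142 in GL, 5.53-fold lower than in BL (-2.47 ± 0.42, adjusted p = 0.000442). For these 3 genes the highest GL array stayed below every BL and SL non-LRC array. Aurkb had 71.8 and 48.3, and Cdca8 1068 and 543, both lower than in BL (-2.07 ± 0.41 and -1.23 ± 0.23) and in SL non-LRC (-2.20 ± 0.50 and -1.65 ± 0.29). Outside the _x_at and _s_at types Cdca8 was called neither against BL (adjusted p = 0.0724) nor against SL non-LRC. Its BL call was also lost without GL 2 (adjusted p = 0.0752). Its SL non-LRC call was also lost without a mean-variance trend and with the array set as a term (adjusted p up to 0.233 over these alternatives). Cdc25c was not above background on either GL array and was at least 3.19-fold lower than in BL (adjusted p = 0.00958) and at least 5.28-fold lower than in SL non-LRC (adjusted p = 0.0308). The SL non-LRC call of Cdc25c was lost in 4 of 4 fits without 1 array (adjusted p up to 0.188) and the BL call without GL 2 (0.152), and outside the _x_at and _s_at types neither was called (0.526 against SL non-LRC and 0.698 against BL).

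Among kinetochore genes, Cenpf had 108 and 26.3 in GL and was lower than in SL non-LRC (-3.56 ± 0.58, adjusted p = 0.00179) and in BL (-2.53 ± 0.48, adjusted p = 0.00114), the BL call not without GL 2 (adjusted p = 0.0623). Ndc80 had 21.9 and 8.22 in GL, neither above background, which is at least 5.05-fold lower than in SL non-LRC and at least 3.18-fold lower than in BL, without a call (adjusted p = 0.117 and 0.0655). Cenpe had 125 and 79.1 in GL and did not differ by the test from BL (-0.29 ± 0.49, adjusted p = 0.778) or SL non-LRC (-0.93 ± 0.60, adjusted p = 0.458). Of the 5 kinetochore genes, 2 were lower than in BL and 2 lower than in SL non-LRC. Cdc20 had 105 and 144 in GL, lower than in BL (-1.59 ± 0.32, adjusted p = 0.00177) and SL non-LRC (-2.08 ± 0.39, adjusted p = 0.00452). Both Cdc20 calls rest on its _x_at probe set: the one outside that type gave -0.28 against BL (adjusted p = 0.657) and -0.54 against SL non-LRC (adjusted p = 0.532), and the SL non-LRC call was lost without SL non-LRC 2 or GL 1 (up to 0.0726). Ube2c had 945 and 873, overlapping BL LRC and below BL non-LRC, and was lower than the BL mean (-0.93 ± 0.23, adjusted p = 0.00861), a call lost without either GL array (adjusted p up to 0.0926).

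Several other genes had few or no calls in the GL comparisons. For Kif11, Bub1 and Tpx2 the GL arrays still lay below all BL and SL non-LRC arrays. Those of Bub1b and Ccnb2 lay below SL non-LRC and overlapped BL. Birc5 had 348 and 63.1 in GL, Plk1 158 and 63.4 and Kif11 181 and 163. The GL arrays of Birc5 and Plk1 lay far apart, so that GL 1 overlapped the non-LRC arrays. Bub1 had 27.04 and 33.0 and Bub1b 93.3 and 35.9 in GL, Tpx2 130.2 and 108 and Ccnb2 196 and 236. Of these, Tpx2 alone was called, against SL non-LRC (-1.83 ± 0.49, adjusted p = 0.0394), and that call was lost in 4 of 4 fits without 1 array (adjusted p up to 0.243). Ttk had 296 and 368 in GL, 6.79-fold lower than in SL LRC (-2.76 ± 0.41, adjusted p = 0.000349) and within the range of SL non-LRC. Kif2c had 248 and 103 in GL and was higher than in SL LRC (2.55 ± 0.65, adjusted p = 0.0196), a call lost without SL LRC 2 or GL 1 (adjusted p up to 0.215).

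GL arrays also carried other cells' transcripts. The summed intensity of 10 myeloid and Langerhans markers was 27403.5 to 59209.9 in GL, against 1194 to 8669 on all other arrays. That of 8 T cell markers was 10306 to 32940.1 in GL, against 2390 to 8362, and that of 10 hair follicle bulge and germ markers 34574 to 35185 in GL, against 6574 to 24537. No marker of these 3 lists was below the floor on both GL arrays. The sums of 8 melanocyte markers (2171 to 3162 in GL, against 600 to 1355) and 8 fibroblast markers (2456 to 3061, against 809 to 2399) were also highest there. Of 10 hair matrix and inner root sheath markers 8 were called higher in GL than in BL and 1 lower, though their sum overlapped SL LRC. Of 6 endothelial markers 0 were called against BL. The part of any of these cells in the GL values was not tested. The 3' minus 5' difference of the Gapdh control, a measure of RNA quality, was 1.22 log2 units on GL 1 and 0.68 on GL 2, against 0.68 to 1.02 on the other arrays.

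Other lists of mitosis genes had fewer calls, to be read against the 4.52% of all genes that were lower and the 2.77% that were higher in LRC over both layers. Of 32 further kinetochore and centromere genes measured, 3 were lower and 1 higher in LRC over both layers (median -0.32). Those lower were Spc24 (-1.49 ± 0.24, adjusted p = 0.000728), Knl1 (-1.88 ± 0.33, adjusted p = 0.00174) and Spc25 (-1.57 ± 0.38, adjusted p = 0.0177), all outer kinetochore subunits, and Cenpt, of the inner kinetochore, was higher (0.93 ± 0.22, adjusted p = 0.0137). Of 30 further spindle and cytokinesis genes 5 were lower and 0 higher (median -0.60), among them the pole protein gene Aspm (-1.60 ± 0.29, adjusted p = 0.00234), which had 242, 224 and 211 in BL LRC, against 343, 402 and 549 in BL non-LRC. Of 18 condensin and cohesin genes 3 were lower and 0 higher (median -0.07), all of condensin: Smc4 (-0.91 ± 0.12, adjusted p = 9.67e-05), Ncapd2 (-1.65 ± 0.36) and Ncapg (-1.48 ± 0.38). Of 17 genes of the anaphase promoting complex itself and its regulators, 0 were called by limma in any comparison, with 1 to 5 at an unadjusted p under 0.05 (median over both layers -0.14). Of 23 further G2 and M regulators 5 were lower and 1 higher (median -0.40). Cdca3 (-1.50 ± 0.24, adjusted p = 0.000853) and the Cdk partners Cks1b (-1.09 ± 0.18, adjusted p = 0.001) and Cks2 (-0.90 ± 0.15, adjusted p = 0.00119) were lower, and Wee1, the kinase that inhibits Cdk1, was higher (0.83 ± 0.20, adjusted p = 0.0142). Ccnb1 was not analysed here, since no probe set names it alone.

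The transcription factor gene Foxm1, an activator of genes with CHR elements, was lower over both layers (-1.75 ± 0.44, adjusted p = 0.0205), and Mybl2, which encodes B-Myb, was at -0.92 ± 0.41 (adjusted p = 0.226). Of the 27 mitosis genes with a CHR match, 20 were lower over both layers and 1, Ttk, higher, and of the 7 without a match 4 were lower. Of all genes, with a match or not, 4.52% were lower and 2.77% higher. The share among all genes with a match is not given, so a link between the CHR match and the label was not tested.

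DNA replication genes, which are transcribed earlier in the cycle, were set beside the mitosis genes. In BL LRC 0 of 39 were called by limma and 0 had an unadjusted p under 0.05, with a median of 0.03 log2 units against BL non-LRC. In SL LRC 9 were lower and 0 higher than in SL non-LRC (median -0.72), and over both layers 5 were lower and 0 higher (median -0.27). Mcm5, a subunit of the replicative helicase, had 4187, 3854 and 4711 in BL LRC, against 3427, 4013 and 4785 in BL non-LRC. The SL arrays gave 816 and 797 in LRC, against 2938 and 2478 in non-LRC. BL labels overlapped and SL labels did not, and the difference between layers missed the threshold (-1.81 ± 0.30, adjusted p = 0.0948). Pcna, the polymerase clamp, was at -0.10 ± 0.12 over both layers. Between LRC of the layers, 19 replication genes were lower in SL against 3 mitosis genes. In GL 30 of the 39 were lower than in BL (median -1.23), beside 19 of the 40 mitosis genes (median -1.12). Of all genes, 1.23% were lower in BL LRC, 2.7% in SL LRC and 4.52% in LRC over both layers. Between LRC of the layers 1.41% of all genes were lower in SL, and 8.41% were lower in GL than in BL.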

How the data were processed

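RNA from sorted mouse epidermal cells was measured on 12 arrays of 5 groups. Per the labels, RNA was extracted with RNeasy micro, and 5 ng was amplified with Ovation Pico WTA and labelled with Encore Biotin. The deposited values are linear intensities that the authors had scaled to a common 2% trimmed mean, recomputed here from the files. The summarisation software is not stated. The design foresaw log2 values, whereas the deposited intensities are linear, so log2 was taken with nothing added.

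Of 45101 probe sets, 34945 name 1 gene, and the probe set of highest mean log2 intensity stood for each of 18193 genes. Each array's floor was the 95th percentile of 27 bacterial control probe sets, and a side never above it gives a bound ("at least"). One limma model (3.58.1, R 4.3.3) of 5 group means was fitted with a mean-variance trend, with Benjamini-Hochberg adjustment over all genes at 0.05, and was tested on simulated data. Alternatives covered scaling, offset, dim genes, probe set choice, array set, replicate block and each array left out. The 40 genes and the other lists were chosen with earlier results of these data known. Values per array are given for 20 genes fixed by name and for up to 4 called genes of smallest p per direction and comparison. From other lists Aspm, Foxm1, Mybl2, Mcm5, Pcna and up to 3 called genes per direction are named. Promoters are from RefSeq, build GRCm38.p6.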

Additional observations from a re-analysis of the deposited data

How the results depend on the processing

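No called gene, count or median reversed its direction under the alternatives run, except that the GL minus SL LRC median, near 0, took either sign. Of 1754 results for single genes under alternatives, 1421 kept their direction and side of the threshold, 320 lost the call and 13 gained one. Without a mean-variance trend, 0 mitosis genes were called in BL, 4 in SL, 18 over both layers, 1 between SL LRC and BL LRC, and 9 between GL and SL non-LRC. With the higher array set alone, 0 were called in BL and 2 between SL LRC and BL LRC, and the other label comparisons and those with SL non-LRC could not be fitted. The array set as a term left 6 in SL. A fit of the compared groups only gave 1 between GL and SL LRC and 10 between GL and SL non-LRC, and the mean of all probe sets also gave 10 there. With both array 1 samples of BL left out, an alternative chosen after seeing the data, 1 was called between SL LRC and BL LRC. The GL minus SL LRC median was -0.16 after quantile normalization. The GL minus SL non-LRC median was -1.10 with 32 added before log2 and -1.07 with the mean of probe sets. Leaving out 1 array gave counts of 1 to 4 and medians of -1.11 to -0.73 in BL, 4 to 11 and -1.72 to -1.26 in SL, and 18 to 28 and -1.41 to -1.22 over both layers. It gave 0 and -0.86 to -0.30 for the interaction, 1 to 2 and -0.93 to -0.72 for SL LRC against BL LRC, and 0 and -0.42 to -0.079 for SL non-LRC against BL non-LRC. It gave 2 to 4 and -0.19 to 0.15 for GL against SL LRC, 5 to 9 and -1.61 to -1.33 for GL against SL non-LRC, and 13 to 22 and -1.37 to -0.998 for GL against BL. The cause of these changes was not tested, and the fits that leave some arrays out also have fewer arrays. With the replicate number as a block, 5 were called in BL and 2 between SL LRC and BL LRC. Same-numbered BL arrays correlated at 0.132, 0.073 and 0.080 over 15946 genes, against -0.064 to 0.034 for same-numbered arrays of any other 2 groups. The BL values were not all over 0.1, and the main fit did not take the numbers as pairs. These values do not show that the BL labels were unpaired. The BL arrays numbered 1 also share the set of lower hybridisation control. Median centring moved the share of lower calls among all called genes to 51.1% in SL (64.5% before), 51.3% over both layers (62.0%) 62.7% for GL against SL LRC (43.0%), 69.4% for GL against SL non-LRC (58.9%) and 60.9% for GL against BL (49.3%). It moved the median of all genes to 0.12 in SL, -0.27 for GL against SL LRC and -0.16 for GL against BL.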

Other observations

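Several mitosis genes have further probe sets. Of 20 other probe sets above the floor on all 12 arrays, which belong to 15 of the 40 genes, 16 had the sign of the chosen probe set in BL LRC minus BL non-LRC and 4 the opposite (Top2a, Cenpa, Incenp and Pttg1). In SL LRC minus SL non-LRC 16 had the same sign and 4 the opposite, a pair of Top2a probe sets and 1 each of Prc1 and Pttg1. In GL minus SL non-LRC all 20 had the same sign.

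Regulators of mitotic entry outside the 40 genes differed between fractions. Wee1 intensity was 2301, 3143 and 4009 in BL LRC, against 2369, 2137 and 2955 in BL non-LRC, and 1782 and 2189 in SL LRC, against 861 and 704 in SL non-LRC. GL had 276 and 521, below all other arrays, and the labels overlapped in BL and not in SL. Foxm1 had 81.9, 116 and 153 in BL LRC, against 214, 132 and 258 in BL non-LRC, and 9.35 and 42.6 in SL LRC, against 141 and 124 in SL non-LRC. Only 1 of the 2 SL LRC arrays was above the floor for Foxm1, and GL had 114 and 149, higher than SL LRC by limma (2.71 ± 0.68, adjusted p = 0.0172).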
